A study of Mus musculus with 2 samples.

Results

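The 10 genes described here are markers by which macrophages are recognised: Adgre1, Itgam, Itgax, Cd14, Cd68, Mertk, Axl, Cx3cr1, Lyz1 and Lyz2. They were chosen by name, with earlier results of these data known, from the 16614 genes listed in each library. All 10 were found, 9 under these symbols and Adgre1 under its older symbol Emr1. RNA was sequenced from C57BL/6 mouse bone marrow cells, grown for 3 days with M-CSF, a growth factor for macrophages, and then treated for 2 days with RANKL, the cytokine that drives macrophages towards osteoclasts. Both cultures received both factors. They differed in genotype, wild type (WT) in one and Foxo3 knockout (KO) in the other, and FoxO3 is a forkhead transcription factor. Each genotype is represented by 1 library. The sources used here do not give how the knockout allele was made, how many animals were used or their age. WT and KO below name the libraries.

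Macrophages arise from monocytes and marrow progenitors under M-CSF, and RANKL then directs part of their programme towards bone-resorbing, multinucleate osteoclasts. The markers cover several roles. F4/80, the product of Adgre1, is an adhesion G protein-coupled receptor widely used to stain mouse macrophages. Itgam (CD11b) and Itgax (CD11c) encode integrin alpha chains that pair with the beta2 chain Itgb2. Cd14 encodes the co-receptor that hands lipopolysaccharide to TLR4, and Cd68 a glycoprotein of late endosomes and lysosomes. Mertk and Axl are receptor tyrosine kinases of the TAM family. Both bind Gas6 on dying cells, and Mertk also binds protein S. Cx3cr1 is the fractalkine receptor, and Lyz1 and Lyz2 encode lysozymes that cut bacterial cell walls.

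Values are FPKM (fragments per kilobase of transcript, per library size), a unit inferred from the values. The difference of a gene is its log2 ratio, log2(KO + 1) minus log2(WT + 1). The pseudocount of 1 FPKM understates the difference of genes of low level. Genes under 1 FPKM in both libraries were left out, which kept 10003 measured genes and all 10 markers. Of the markers, Axl passed through the WT library alone. With 1 library per genotype there is no replicate error and no test, so each difference describes these 2 libraries, and a rule of size, 2-fold on this scale, stands in for a test. In bulk RNA, fewer cells of a type and less RNA per cell cannot be told apart. As a check of the labels, Foxo3 itself read 10.3 FPKM in WT and 0.548 FPKM in KO.

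None of the 10 markers differed by 2-fold in either direction, where 0.2% of all measured genes were at least 2-fold lower and 0.12% at least 2-fold higher in KO. Below that size the markers split. In KO, 4 markers, Mertk, Axl, Lyz2 and Lyz1, were at 80% of WT or less on the same scale, as were 4.16% of measured genes. This smaller size, and 125% or more for higher genes, is used for the lists below. No marker was at 125% or more, against 2.96% of measured genes. The log2 ratio was below 0 for 8 of the 10 (9 under either scaling, where Itgam changes sign) and above 0 for 2, where it was below 0 for 42.4% and above 0 for 57.6% of measured genes. The median over the markers was -0.19, beside 0.03 over all measured genes. Without Lyz1, which resembles Lyz2 and whose value may include Lyz2 reads, or without Mertk, the median was -0.12. Leaving out Lyz1, 3 markers were at 80% of WT or less. For the pathway lists below, either scaling adds at most 2 genes to those below 0. Since the markers and lists were not chosen blind to these data, the shares of all measured genes serve as description only.

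The 2 lysozyme genes lie side by side, and their sequences are shown because they bear on how far the values of the pair can be separated. Lyz2 (chromosome 10, 117277331 to 117282321, minus strand, mm10) and Lyz1 (117287797 to 117292868, same strand) are 5475 bases apart, and each has 4 exons. Their coding sequences have the same length, 444 bases, and are identical at 422 positions and different at 22. Over coding bases 37 to 156 of the GENCODE M21 transcripts, the 120-base stretch with the most differences, they differ at 14, given in capitals:
Lyz1: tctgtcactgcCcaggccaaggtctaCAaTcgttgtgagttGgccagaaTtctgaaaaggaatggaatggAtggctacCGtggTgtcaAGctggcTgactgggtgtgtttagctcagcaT
Lyz2: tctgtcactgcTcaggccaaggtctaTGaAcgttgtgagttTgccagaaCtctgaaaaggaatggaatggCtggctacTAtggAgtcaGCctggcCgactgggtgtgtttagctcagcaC

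Of the 50-base windows of the Lyz1 transcript, 16.1% also occur in the Lyz2 transcript, and of the 100-base windows 2.06%. Reads that fall there cannot be assigned to one gene, and nothing read here says how the authors' counting treated them. These shares do not give the size of the error in either value. Lyz2 was 12.5 times as abundant as Lyz1 in WT and 11.8 times in KO. Lyz2 reads counted for Lyz1 would thus weigh far more on the Lyz1 value than the reverse on Lyz2. How much of the Lyz1 value, and of its difference between the libraries, comes from Lyz2 reads was not tested.

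Lyz2 was the most abundant marker, ranking 3 among all genes in WT and 5 in KO. It stood at 7501 FPKM in WT and 5674 FPKM in KO, 75.6% of the WT value, with a log2 ratio of -0.40. Lyz1 stood at 598.9 FPKM in WT and 478.8 FPKM in KO, 79.96% of the WT value, with a log2 ratio of -0.32. Both lysozymes were thus lower in KO, Lyz1 at the very edge of the 80% bound. The level of Lyz2 was 12.5 times that of Lyz1 in WT and 11.8 times in KO. With the pair summed, the log2 ratio was -0.40. Among the 500 measured genes nearest in level to Lyz2, 10 had a lower log2 ratio, and among those nearest to Lyz1, 15 did. Few genes are more abundant than Lyz2, Lyz1 or Cd68, so most of their neighbours were less abundant, for Lyz2 far less. Lyz1 is also known from Paneth cells of the gut. Of 6 Paneth cell markers found in the files, 4 were listed at 0 in both libraries and none passed 0.153 FPKM.

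**Figure D1:**
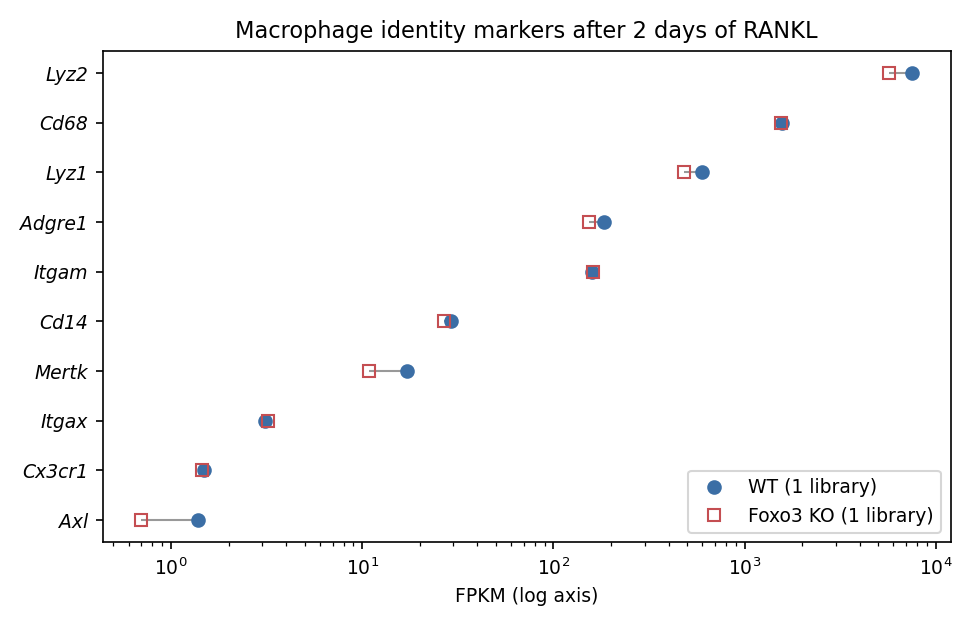
Level of each marker in FPKM (log axis) in the WT library (filled circles) and the Foxo3 KO library (open squares), 1 library each, ordered by the WT level. The gap is widest on this axis for Axl and Mertk, while Cd68, Itgam, Itgax and Cx3cr1 nearly coincide.

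The TAM receptors showed the widest gaps. Mertk (chromosome 2, 128698956 to 128802894), a receptor by which macrophages engulf apoptotic cells, stood at 17.1 FPKM in WT and 10.9 FPKM in KO, 63.5% of the WT value. Its log2 ratio of -0.61 was the lowest of the markers, and 83 of the 10003 measured genes had a lower one. Of the 500 genes nearest in level, 1 did. Mertk was the 1 marker past 1.5-fold, a size that 0.94% of measured genes reached in this direction and 0.41% in the other.

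Axl (chromosome 7, 25757273 to 25788705) was the least abundant marker, at 1.38 FPKM in WT and 0.697 FPKM in KO. The KO value was 50.5% of the WT value, a 1.98-fold difference without a pseudocount, and the log2 ratio was -0.49 with the pseudocount of 1. Of the 500 genes nearest in level, whose central 95% ran from -0.54 to 0.51, 18 had a lower log2 ratio. Low genes scatter more than abundant ones, so Axl lay inside the range of its neighbours while Mertk, whose neighbours ran from -0.31 to 0.32, lay outside. Judged from what 1 read is worth in genes of few reads, Axl rested on about 148 reads in WT and 103 in KO, and Mertk on about 1845 and 1612.

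Of the other genes of this pathway, Gas6, the ligand that bridges TAM receptors to phosphatidylserine, read 143.0 FPKM in WT and 106.8 FPKM in KO, a log2 ratio of -0.42. Pros1, which encodes protein S, the other ligand of the family, read 7.44 and 6.64 FPKM. Tyro3, the remaining receptor of the family, was under 0.1 FPKM in both libraries and was not measured. The list of TAM and efferocytosis genes held 25 genes, with 17 measured. Of these 14 had a log2 ratio below 0, and the median was -0.14. Past the 80% and 125% bounds, 5 were lower and none higher: Gas6 and, chosen after their values were seen, the scavenger receptor gene Stab1 (150.8 FPKM in WT and 94.8 FPKM in KO), the endocytic receptor gene Lrp1 (33.8 and 22.8 FPKM), the Rac activator gene Dock2 (26.1 and 20.0 FPKM) and the inhibitory receptor gene Cd300a (21.3 and 16.8 FPKM). The most abundant of the list lay nearer 0, with Anxa1 at a log2 ratio of -0.09 and Rac1 at -0.11.

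**Figure D2:**
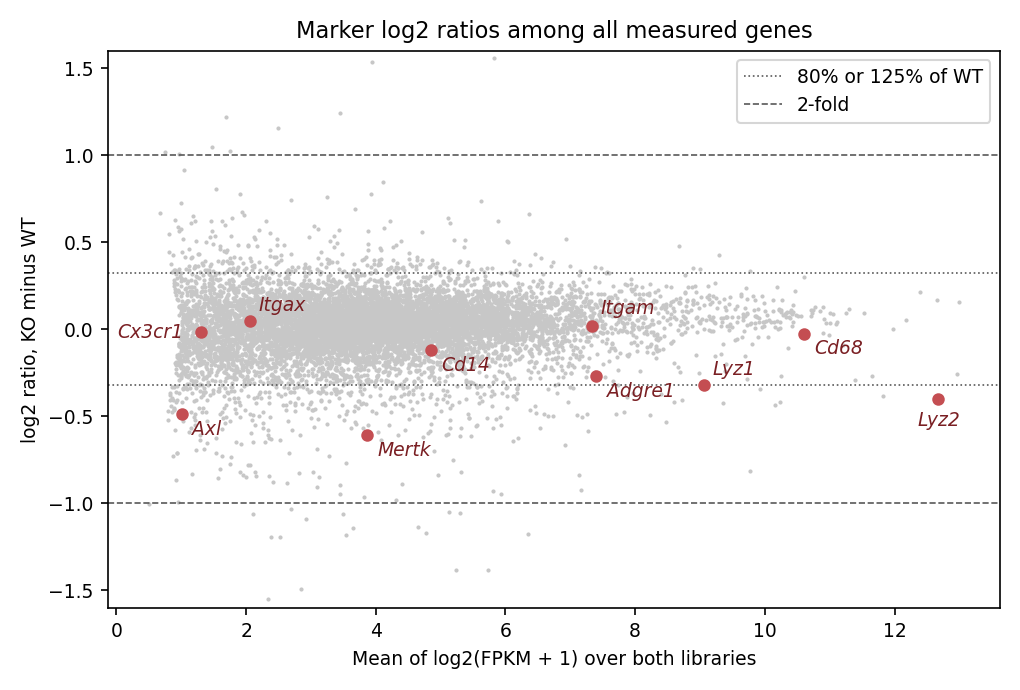
Log2 ratio (KO minus WT) against the mean of log2(FPKM + 1) over both libraries for all measured genes (grey, of which 5 lie beyond the axis at 1.6) and for the 10 markers (red). Dotted lines mark 80% and 125% of WT and dashed lines 2-fold. Mertk lies below the grey cloud at its level, and Lyz2 is at the far right at -0.40.

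The F4/80 gene Adgre1 (chromosome 17, 57358691 to 57483527) stood at 184.6 FPKM in WT and 153.1 FPKM in KO, 82.9% of the WT value, with a log2 ratio of -0.27. This is just short of the 80% bound. Of the 500 genes nearest in level, 24 had a lower log2 ratio. The related adhesion receptors went the other way, with Adgre4 at 4.13 FPKM in WT and 5.37 FPKM in KO (log2 ratio 0.31) and Adgre5, which encodes CD97, at 104.3 and 117.2 FPKM (0.17). Neither reached 125% on the log2(FPKM + 1) scale.

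The integrin alpha chains differed little between the libraries. Itgam (chromosome 7, 128062640 to 128118491) stood at 159.7 FPKM in WT and 161.8 FPKM in KO, a log2 ratio of 0.02, and an unnamed gene model overlaps its exons. Itgax, 11055 bases downstream (128129547 to 128150657), stood at 3.10 FPKM in WT and 3.23 FPKM in KO, a log2 ratio of 0.05. Itgam was 51.6 times as abundant as Itgax in WT and 50.1 times in KO. These were the 2 markers with a log2 ratio above 0, and that of Itgam turned to -0.00237 with trimmed-mean scaling and -0.00647 when centred on the median gene.

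The coding sequences of Itgam and Itgax are 65.0% identical where aligned, and those of Axl and Mertk 60.2%. Neither pair shares a 50-base window, unlike the lysozymes. Itgb2, the partner of both alpha chains, read 273.2 FPKM in WT and 285.6 FPKM in KO. Itgal, the alpha chain of LFA-1, read 2.73 and 3.16 FPKM, and Itgad was listed at 0 in WT and at 0.00635 FPKM in KO. Of 20 measured genes of the integrin list 8 had a log2 ratio below 0, and the median was 0.03. Of these, past the same bounds, 1 was lower and 1 higher, both chosen after their values were seen: the laminin receptor chain Itga6 (33.6 FPKM in WT and 21.9 FPKM in KO) and Icam1, a ligand of beta2 integrins (59.1 and 74.4 FPKM). Rap1b, the most abundant of the list, had a log2 ratio of 0.03.

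Cd14 (chromosome 18, 36725067 to 36726798) stood at 29.1 FPKM in WT and 26.7 FPKM in KO, 91.8% of the WT value, with a log2 ratio of -0.12. Of the 500 genes nearest in level, 56 had a lower log2 ratio, so Cd14 lay well inside their spread. Its signalling partner Tlr4 read 17.0 FPKM in WT and 14.0 FPKM in KO (log2 ratio -0.26). Ly96, which encodes the lipopolysaccharide-binding protein MD-2, read 37.2 and 37.7 FPKM, and Tlr2 read 17.4 and 16.8 FPKM. Of 17 measured genes of lipopolysaccharide sensing 13 had a log2 ratio below 0, with a median of -0.05. Beyond those bounds, 2 were lower and none higher: Cd180, a TLR4-like receptor (75.2 FPKM in WT and 54.8 FPKM in KO), and the adaptor gene Ticam2 (8.09 and 6.12 FPKM), which was chosen with its values in view. Ly86, the partner of CD180, had a log2 ratio of -0.05.

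Cd68 (chromosome 11, 69664213 to 69666153) was the second most abundant marker and stood at 1573 FPKM in WT and 1546 FPKM in KO, a log2 ratio of -0.02. Cx3cr1 (chromosome 9, 119901616 to 120069879), which overlaps an unnamed gene model, stood at 1.48 FPKM in WT and 1.46 FPKM in KO, a log2 ratio of -0.01. The most abundant marker after Lyz2 and one of the scarcest thus read nearly the same in both libraries. Of the 500 genes nearest in level, 100 had a lower log2 ratio than Cd68 and 248 a lower one than Cx3cr1. Cx3cr1 is known as high on circulating and resident cells of the monocyte lineage. By its length it rested on about 167 reads in WT and 226 in KO.

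Fractalkine itself, Cx3cl1, was under 0.1 FPKM in both libraries. The chemokine receptor gene Ccr2 read 3.11 FPKM in WT and 2.42 FPKM in KO, a log2 ratio of -0.27. The list of fractalkine and monocyte trafficking genes did not hold trafficking receptors alone. Of its 12 measured genes 9 had a log2 ratio below 0, or 11 under either scaling. The median was -0.05, in a range from -0.51 to 0.31. By the same bounds, 2 were lower and none higher, both chosen after their values were seen: the complement receptor gene C5ar1 (50.95 FPKM in WT and 35.5 FPKM in KO) and the selectin ligand gene Selplg (80.4 and 63.6 FPKM). The abundant members Sirpa and Ccr1 had log2 ratios of -0.00302 and 0.00680.

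Transcription factors that set macrophage identity went both ways. Spi1, which encodes the master regulator PU.1 and is listed under the older symbol Sfpi1, read 403.0 FPKM in WT and 466.0 FPKM in KO, a log2 ratio of 0.21. Irf8, a factor of the monocyte lineage that also restrains osteoclast formation, read 29.0 and 20.3 FPKM, a log2 ratio of -0.49. The abundant Bhlhe40 had a log2 ratio of 0.23. Of 21 measured factors 12 had a log2 ratio below 0, with a median of -0.07. Past the 80% and 125% bounds, 4 were lower and 2 higher. Apart from Irf8 they were chosen after their values were seen: Pparg (5.51 FPKM in WT and 3.21 FPKM in KO), Bhlhe41 (3.31 and 2.22 FPKM) and Egr2 (1.29 and 0.809 FPKM) were lower, and Cebpd (3.77 and 5.37 FPKM) and Klf4 (2.13 and 2.92 FPKM) higher. Egr2 passed the minimum of 1 FPKM through WT alone.

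A further list held 30 other macrophage surface and lysosomal genes. Of 28 measured, 21 had a log2 ratio below 0 and the median was -0.24. Of these, past the same bounds, 7 were lower and none higher. Chosen among these after their values were seen, Trem2 read 172.4 FPKM in WT and 121.2 FPKM in KO, the lysosomal protease gene Lgmn 354.7 and 251.7 FPKM, and the pore-forming protein gene Mpeg1 448.4 and 335.5 FPKM. The receptor for M-CSF, Csf1r, read 697.1 FPKM in WT and 694.6 FPKM in KO, a log2 ratio of -0.00508. The adaptor gene Tyrobp and the tetraspanin gene Cd63, the most abundant of the list, had log2 ratios of 0.04 and 0.01. Of the 7 genes with a log2 ratio above 0, Adgre4 and Adgre5 were described above.

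**Figure D3:**
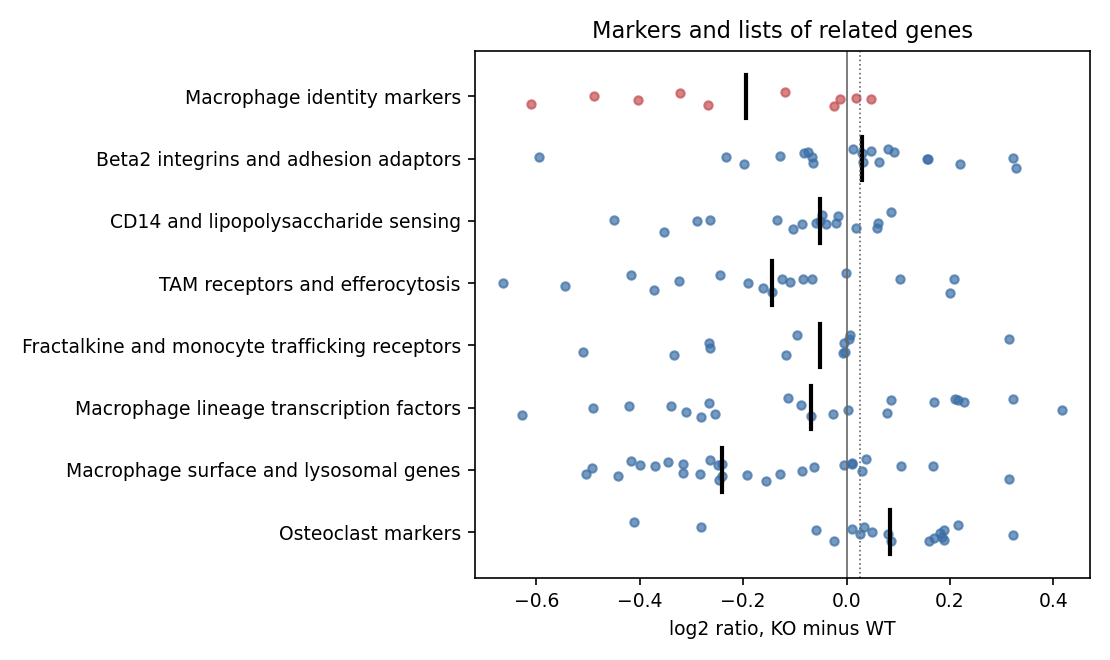
Log2 ratio (KO minus WT) of the 10 markers (red) and of the measured genes of each related list (blue), 1 point per gene, with the median as a black bar. The solid grey line is 0 and the dotted line the median of all measured genes, 0.03. The median is -0.19 for the markers and 0.08 for osteoclast markers.

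Osteoclast markers were abundant in both libraries, with Acp5 at 7737 FPKM in WT and 8636 FPKM in KO and Ctsk at 6106 and 6862 FPKM. Acp5 and Ctsk ranked with Lyz2 among the 5 most abundant genes of each library, so osteoclast and macrophage transcripts were both abundant in cultures labelled as bone marrow macrophages. Of 18 measured osteoclast markers 14 had a log2 ratio above 0, or 13 under either scaling, with a median of 0.08. Beyond those bounds, 1 was higher and 1 lower, Car2 (log2 ratio 0.32) and Cd109 (-0.41), both chosen after their values were seen. The summed level of the list was 22283 FPKM in WT and 25016 FPKM in KO, while that of the 10 macrophage markers was 10069 and 8056 FPKM. Lyz2 made up most of the latter difference, and without it the markers summed to 2568 and 2382 FPKM. The osteoclast sum and its difference likewise rested mostly on Acp5, Ctsk and Mmp9. Mmp9, chosen after its values were seen, read 5009 FPKM in WT and 5815 FPKM in KO. The part of osteoclast differentiation in the lower markers was not tested.

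Markers of other marrow cells were lower in level than the abundant macrophage markers. Those named below for being near or at 0 were chosen after their values were seen. Neutrophil markers, of which Itgam is also a marker, summed to 177.1 FPKM in WT and 169.6 FPKM in KO, with 9 of 12 measured below 0 and a median log2 ratio of -0.10. S100a8 was highest, at 70.2 and 67.0 FPKM. By the same bounds, 3 were lower, chosen after their values were seen: Mmp8 (2.86 and 1.72 FPKM), Csf3r (4.79 and 3.52 FPKM) and Retnlg, listed at 1.01 FPKM in WT and at 0 in KO. Retnlg passed the minimum through WT alone. Dendritic cell markers, for which Itgax is also used, summed to 145.7 and 123.3 FPKM, nearly all of it Bst2 (139.9 and 117.2 FPKM), which interferon also induces. Of 12 dendritic genes 3 were measured: Bst2 and, chosen after their values were seen, Cd24a (2.96 and 2.24 FPKM) and Zbtb46 (1.14 and 1.48 FPKM), the last of them higher in KO. None of the 3 passed the 80% or 125% bound. Flt3, Xcr1 and Clec9a were under 0.4 FPKM in both libraries.

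Of lymphoid markers 1 of 13 was measured, Cd4, at 6.77 FPKM in WT and 6.27 FPKM in KO, while Cd3e, Pax5 and Nkg7 were listed at 0 in both. Stromal markers summed to 12.2 and 11.3 FPKM, with Col1a1 the highest at 3.35 and 3.24 FPKM, and Lum was listed at 0. Mast cell, basophil and eosinophil markers summed to 2.53 and 1.63 FPKM, with Prg2, the 1 measured, at 1.71 and 1.05 FPKM (past the 80% bound), and Fcer1a, Ms4a2, Cma1 and Tpsb2 at 0. Of erythroid and megakaryocyte markers, which summed to 57.3 and 27.2 FPKM, the platelet factor gene Pf4 was the 1 measured, at 55.7 and 26.2 FPKM, a log2 ratio of -1.06 and so past 2-fold. The part of these cells in the marker values was not tested.

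Promoters of the markers were searched because the libraries differ in a transcription factor. The Axl stretch below is shown with its values in view, since Axl had the lowest KO share of its WT value among the markers. That share is taken without a pseudocount and rests on few reads, and on the log2 ratio used elsewhere Mertk was lowest. Windows of 250 bases before the RefSeq start (GRCm38.p6) were found for 8 of the 10 markers and searched on both strands for GAGGAAG, a PU.1 core, TTGCNNAA, a C/EBP form, and GTAAACA, the forkhead form bound by FoxO factors. GTAAACA was found in 1 of the 8, Axl, where 3.17% of all 32851 windows hold it. GAGGAAG was found in Axl and Itgam (10.6% of all windows) and TTGCNNAA in Cd68 and Lyz1 (9.56%), and no match overlapped another. Stretches with matches are shown 5′ to 3′ along each gene, with the matches in capitals. They are from Axl (chr7:25788854-25788983, minus strand) and from the nearly equal Itgam (chr7:128062520-128062589, plus strand):
Axl: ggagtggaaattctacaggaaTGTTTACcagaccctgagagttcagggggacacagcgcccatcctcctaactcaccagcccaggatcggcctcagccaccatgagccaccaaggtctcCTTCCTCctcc
Itgam: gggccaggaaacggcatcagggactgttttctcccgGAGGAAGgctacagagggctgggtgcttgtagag

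In Axl both matches read on the opposite strand, the forkhead letters 223 to 229 bases and the PU.1 letters 125 to 131 bases before the start. The match in Itgam lies 78 to 84 bases before its start. A match describes letters and not a bound site, and Mertk, with the lowest log2 ratio, held none of the 3 motifs in this window.

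**Figure D4:**
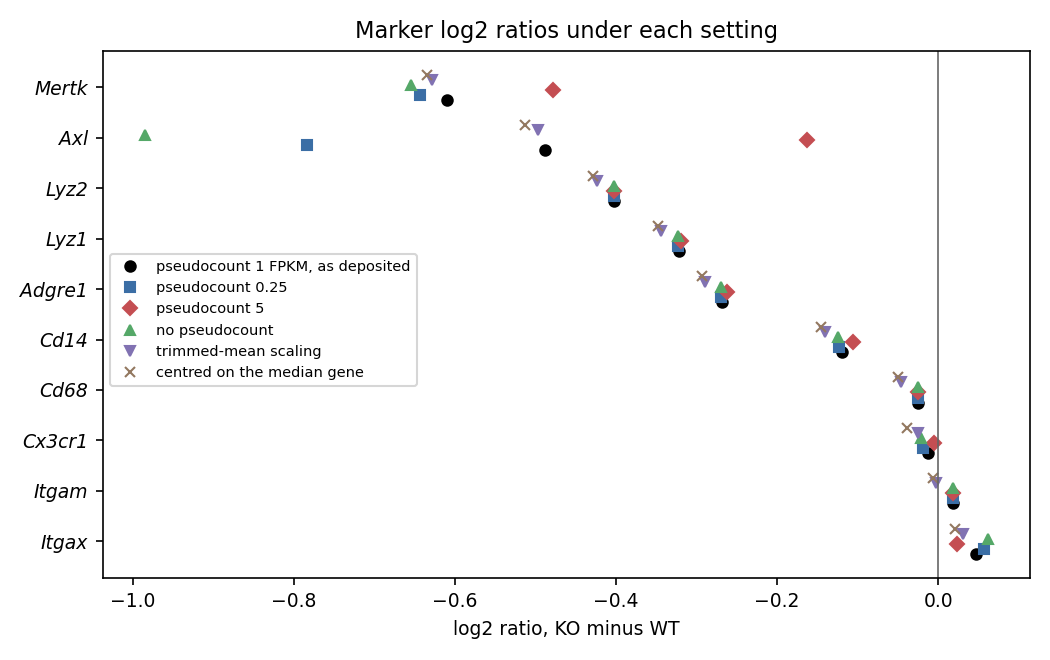
Log2 ratio (KO minus WT) of each marker under 6 settings, with the reported setting as black circles. Axl spreads from -0.98 without a pseudocount to -0.16 with a pseudocount of 5, Mertk from -0.65 to -0.48, and the other markers keep close to their reported values.

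The pseudocount moved the 2 TAM receptors, and none of the other markers, by more than 1 SD of genes of like level. This SD was estimated from percentiles of the 500 neighbours, at 0.24 for Axl and 0.13 for Mertk. It is narrower than the central 95% given above, and the shift of Mertk barely passed it. The log2 ratio of Axl was -0.78 with a pseudocount of 0.25, -0.98 with none and -0.16 with 5, and that of Mertk ran from -0.65 with none to -0.48 with 5. With a pseudocount of 5 the markers at 80% or less were 2 and not 4. The order of the levels, from Lyz2 and Cd68 through Lyz1, Adgre1, Itgam, Cd14, Mertk and Itgax to Cx3cr1 and Axl, was the same in both libraries, except that Itgam passed Adgre1 in KO. No spread over samples is available to say which neighbours in that order differ.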

How the data were processed

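The 2 libraries were poly-A selected and made with an Illumina TruSeq kit, per the labels' protocols. TopHat, edgeR and mm10 are named in the submitters' processing notes, with no versions or roles. The quantifier, annotation, filters and any scaling: not given in the sources used here. The deposited values were read as FPKM from their behaviour: they are not whole, and low values scale inversely with transcript length. A constant of 0.000001 on every deposited value was subtracted.

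Read totals are not given. In 1287 (WT) and 1356 (KO) genes with 1 GENCODE transcript, low FPKM values pile up at what 1 read is worth. That pile-up implied about 25100000 reads for WT and 34500000 for KO. Ratios of 1657 low genes gave a KO library 1.40 times as deep. Reads per marker are estimates from transcript length, with no interval.

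Log2 ratios, counts and medians were computed over the whole table in Python 3.11.15 (numpy 2.4.6, pandas 2.3.3, Biopython 1.88, matplotlib 3.10.9). The log2 ratio and the scaling factor were checked on simulated data, with planted changes larger than any marker showed. That check covers the arithmetic alone. Changes of the size of the markers and the neighbour ranges were not simulated. Neighbours in level are the 500 measured genes nearest in mean log2(FPKM + 1). Gene models are GENCODE M21 on mm10, and promoters are from RefSeq. Lists held 235 genes in 14 groups, of which 228 were found, directly or by a single synonym. Besides the markers, the text names partner genes fixed by name and the most abundant members of each list (2, or 1 for other cell types), and says where others were added. Not every gene that this rule takes is reported here. The markers and lists were chosen with earlier results of these data known. Alternatives were pseudocounts of 0.25, 5 and none, trimmed-mean scaling (30% of ratios and 5% of levels trimmed), centring on the median gene, other minimums and thresholds, and the lysozymes summed.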

Additional observations from a re-analysis of the deposited data

How the results depend on the processing

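Of 52 recomputed log2 ratios of the markers, 48 moved by less than 1 SD of genes of like level. The 4 that moved further were Axl with each other pseudocount and Mertk with a pseudocount of 5. For either scaling this outcome was fixed in advance. Each ratio shifted by 0.03 or less there, and the smallest SD was 0.11. A pseudocount also can hardly move the abundant markers. Signs changed in 2 cases, both Itgam. The median over the markers ran from -0.27 for the markers at 5 FPKM or more to -0.12. It was -0.12 without Mertk, the marker farthest from 0, with Lyz1 and Lyz2 summed, and without Lyz1, since with 9 values the middle one is Cd14. The count at 80% of WT or less was 2 with a pseudocount of 5, and 1 marker was lower at 1.5-fold where none was at 2-fold. Both follow from the construction of the scale and threshold. Of 48 counts and medians under other settings, the other 43 stayed within 1.5 times. Many of these could hardly change, so their number does not measure stability. Dropping the minimum keeps the same markers, and the scalings shift each log2 ratio only slightly. Leaving out Lyz1, Lyz2 (from the summed level) or the 3 markers under 5 FPKM, and a 1.2-fold threshold (5 lower), were chosen after seeing the data. No paired analysis was possible because there is 1 library per genotype, and none could be left out. Depth limits Axl, Cx3cr1 and Itgax most.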
